A study of Rattus norvegicus with 42 samples.

Results

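The comparison described here set the hippocampal libraries with the most transthyretin (Ttr) RNA against those with the least. Ttr encodes the thyroid hormone carrier that choroid plexus epithelium secretes into the cerebrospinal fluid. Of 42 libraries of the series, 41 were ranked by their Ttr CPM (counts of a transcript scaled to the total of its library), and the 14 highest (Ttr-high) were compared with the 14 lowest (Ttr-low), so that 28 of 41 libraries entered and 13 lay in between.

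Each library came from the hippocampus of 1 male Sprague Dawley rat pup, as labelled, taken 72 hours after an intraperitoneal injection on postnatal day 7. There were 14 pups per treatment: saline as the vehicle (VEH), 75 mg/kg of phenobarbital (PB), and levetiracetam at 200 mg/kg (LEV). All were perfused with cold PBS before dissection. One VEH animal (VEH 7), which the labels mark as excluded, was left out of the ranking. The Ttr-high class held 3 VEH, 5 PB and 6 LEV animals and the Ttr-low class 5 VEH, 3 PB and 6 LEV animals. The sample codes come in 2 forms, the first for animals 1 to 6 of each treatment and the second for animals 7 to 14. Ttr-high held 6 libraries of the first form and 8 of the second, and Ttr-low 5 and 9. Library totals in the 41 ranged from 9499492 to 14488134 counts.

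The choroid plexus is a vascular fold in the wall of each brain ventricle, and in the lateral ventricle it is attached along the edge of the hippocampus. Its epithelium makes cerebrospinal fluid by moving ions, bicarbonate and water, secretes carrier proteins and growth factors, carries tufts of cilia and closes the blood-cerebrospinal fluid barrier with tight junctions. Under the epithelium lie fibroblasts and leaky, fenestrated capillaries. In bulk tissue, fewer cells of a type and less RNA per cell cannot be told apart.

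In 1 of the 41 ranked libraries a gene went against the label. Eif2s3y, a Y-linked gene, was at 0.0728 CPM in VEH 1, a Ttr-high library labelled male, while the other 40 ranged from 63.8 to 96.4 CPM. The excluded VEH 7 was at 9.64 CPM. The numbers of transcripts called higher and lower are therefore also given without VEH 1. The gene list counts include it.

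Because the files counted each transcript and give no transcript lengths, levels are compared between libraries and not between genes. Ttr itself chose the classes, and it is given as a description with no test. In the Ttr-low libraries it ranged from 0.759 to 95.3 CPM with a median of 3.76, and in the Ttr-high libraries from 2275 to 6990 CPM with a median of 3650. The last library inside the low class (LEV 5) had 95.3 CPM and the first outside it (PB 9) 107 CPM. The first library inside the high class (VEH 8) had 2275 CPM and the last outside it (LEV 13) 2224 CPM. Neither limit fell at a gap in the ranking. Over all 41 libraries Ttr spanned 9207-fold, and in the highest it took 0.699% of all counts.

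The other 4 markers of the choroid plexus epithelium were near 0 in the Ttr-low libraries and followed Ttr. Klotho (Kl), a co-receptor for fibroblast growth factor 23, ranged from 0.0839 to 1.64 CPM (median 0.447) in Ttr-low and from 19.5 to 78.9 CPM (median 44.8) in Ttr-high libraries. Clic6, a chloride intracellular channel family member, ranged from 0 to 1.63 CPM (median 0.224) and from 19.3 to 66.4 CPM (median 31.3). Sostdc1, a secreted antagonist of BMP and Wnt signalling, ranged from 0 to 1.81 CPM (median 0.315) and from 28.7 to 72.9 CPM (median 43.2). Claudin 2 (Cldn2), the claudin of cation- and water-permeable tight junctions, ranged from 0 to 0.995 CPM (median 0.428) and from 18.8 to 65.9 CPM (median 28.9). In all 4 genes every Ttr-high library lay above every Ttr-low library. The ranking had not used these 4 markers.

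**Figure D1:**
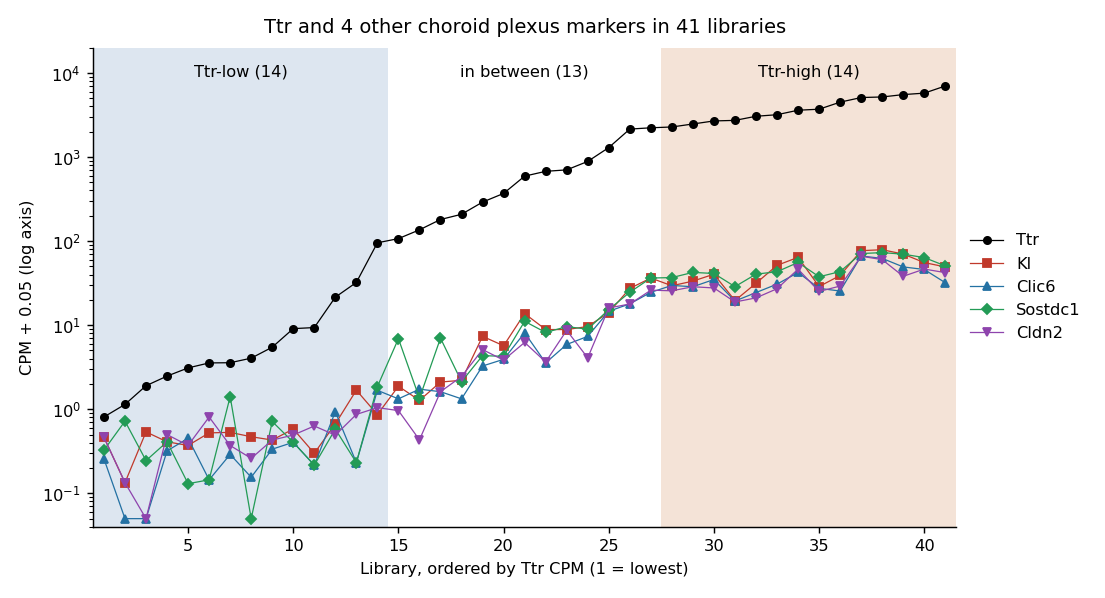
Level of Ttr and of 4 other choroid plexus markers (CPM + 0.05, log axis) in the 41 libraries ordered by Ttr, with the Ttr-low class shaded blue and the Ttr-high class shaded orange. The 4 markers stay below 2 CPM in all 14 Ttr-low libraries and above 18 CPM in all 14 Ttr-high libraries.

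Transcript by transcript, the classes differed almost entirely in one direction. Of 12878 transcripts tested with edgeR, 387 (3.01%) were higher in Ttr-high libraries at an adjusted p below 0.05 and a change of at least 25%, and 4 (0.0311%) were lower. At a fold change of at least 2, 137 (1.06%) were higher and 0 lower, and 31 were higher by at least 8-fold. Without VEH 1, 369 were higher and 1 lower. With the animal number as a replicate block, 196 of the 387 were still called higher. Because the classes were chosen on Ttr in the same libraries, these tests ask which transcripts went with Ttr and not whether the classes differ. The median log2 fold change of all tested transcripts was -0.01. Below, each gene is represented by its transcript with the highest mean CPM, and on that basis 375 of 12005 genes (3.12%) were higher and 0 lower (565 were lower at an unadjusted p below 0.05). In 95 of the 12005 (0.791%) every Ttr-high library lay above every Ttr-low library.

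Mfrp, Clic6, Sostdc1, Kl, Tmem72 and Cldn2 were among the largest rises. Mfrp, a membrane frizzled-related protein, ranged from 0 to 1.90 CPM in Ttr-low and from 36.7 to 114 CPM in Ttr-high libraries, a log2 fold change of 7.14 ± 0.30 (SE, edgeR adjusted p = 2.17e-17). The corresponding log2 fold changes were 6.64 ± 0.27 for Clic6, 6.58 ± 0.24 for Sostdc1, 6.46 ± 0.25 for Kl and 6.26 ± 0.26 for Cldn2. Sostdc1 had the smallest adjusted p of all transcripts tested (3.70e-18). Mfrp, Clic6, Sostdc1, Kl, Tmem72 and Cldn2 were near 0 in Ttr-low libraries, with 78 counts in all 14 together for Sostdc1 and 75 for Mfrp. They passed the filter on low counts through the Ttr-high libraries, so that their p-values are not independent of the classes. Tmem72, a transmembrane protein, rose by 6.31 ± 0.28 on the log2 scale, from at most 0.454 CPM in Ttr-low libraries to at least 10.1 CPM in Ttr-high ones. Cltrn, collectrin, had the highest fitted value (7.22), but only 1 count fell in the 14 Ttr-low libraries together against 410 in the Ttr-high ones, a ratio of 413 with a 95% counting interval from 73.6 to 16336.

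Further genes among the 20 largest rises encode a collagen, enzymes of the matrix and metabolism, and a clotting factor. Col8a1, a short-chain collagen, went from a median of 0.333 to 9.90 CPM (log2 fold change 4.78 ± 0.28). Loxl4, a lysyl oxidase that crosslinks matrix, went from 0.0442 to 2.62 CPM (4.33 ± 0.33), and Acsm5, a medium-chain acyl-CoA synthetase, from 0 to 2.11 CPM (4.73 ± 0.38). Coagulation factor V (F5) went from 0.310 to 23.7 CPM (5.84 ± 0.26). All 4 were taken from the largest rises among called transcripts, so that passing the test was fixed by that choice. In none did the classes overlap. Acsm5 and Loxl4 had 0 counts in 9 and 7 of the 14 Ttr-low libraries, so that they entered the test through their counts in Ttr-high libraries. The same holds for other genes near 0 in Ttr-low libraries, such as Otx2 (18 counts in the 14 together), Ca14 (22) and Slc16a8 (25).

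Gene lists were then read by role, beginning with the epithelium. Over the 7 choroid plexus lists together, 74 of 77 genes in the file were tested, of which 49 were higher and 0 lower, beside 3.12% of all genes, and their median log2 fold change was 0.58. The genes had been listed as choroid plexus genes, so that their direction is not an independent finding.

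**Figure D2:**
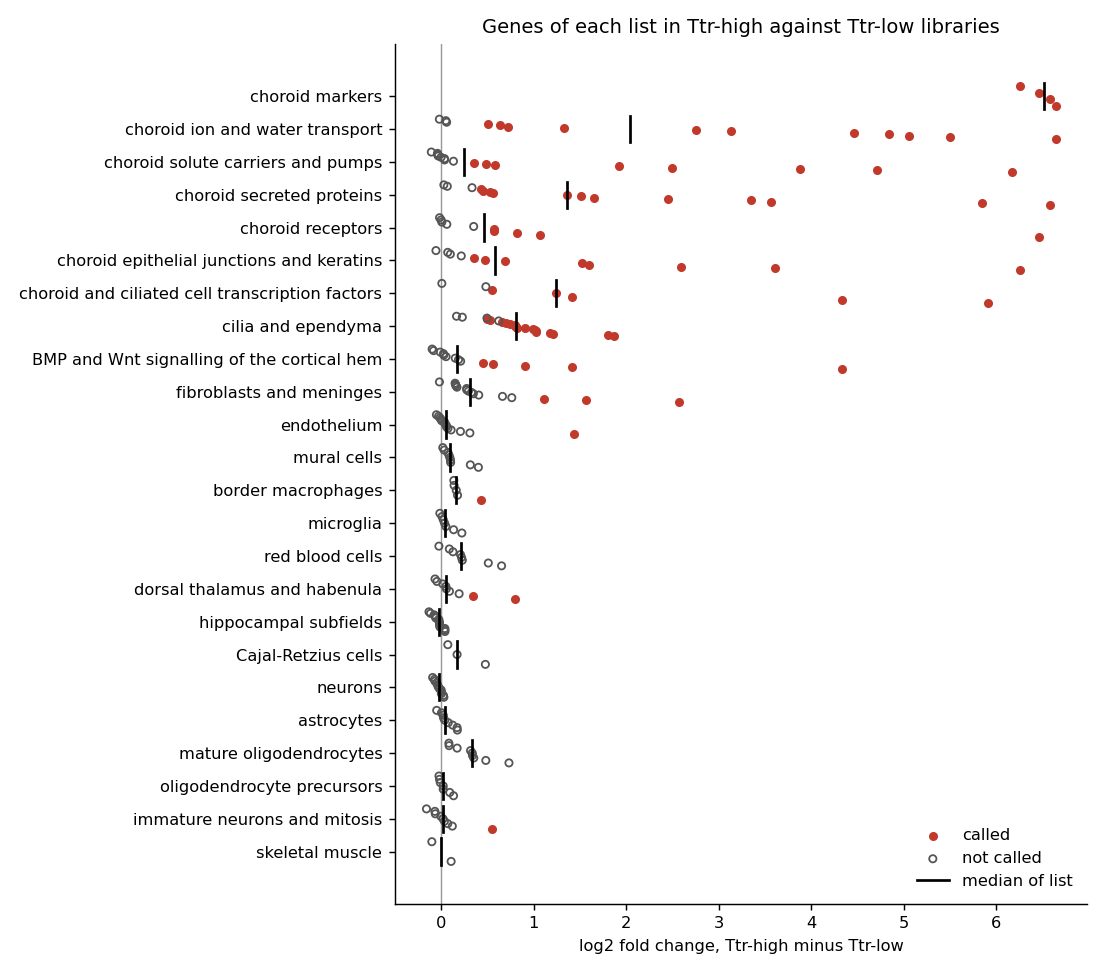
Log2 fold change, Ttr-high minus Ttr-low, of every tested gene in 24 lists, 1 dot per gene, filled red where the gene passed the test, with the list median as a black bar. The choroid plexus lists reach far to the right, though some of their genes lie near 0. The cilia genes lie to the right of 0, up to 1.87, while neurons, hippocampal subfields, astrocytes and microglia gather around 0.

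In the list for transport of ions and water 11 of 14 genes rose, with a median of 2.04 on the log2 scale. Aquaporin 1 (Aqp1), the water channel of the apical membrane, went from a median of 2.52 CPM (range 0.562 to 5.61) to 48.9 CPM (28.8 to 89.9), a log2 fold change of 4.46 ± 0.22. The apical potassium channel Kcnj13 rose by 5.49 ± 0.26 on the log2 scale, the bicarbonate transporter Slc4a5 by 5.05 ± 0.24, carbonic anhydrase 14 (Ca14) by 4.84 ± 0.31 and the cation channel Trpv4 by 3.13 ± 0.18. Kcne2, a potassium channel subunit, had a Ttr-low median of 5.18 CPM against 32.3 CPM in Ttr-high libraries (2.75 ± 0.15).

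Other transporters of the same machinery differed less or did not pass the test. Slc4a2, the basolateral anion exchanger, rose by 1.33 ± 0.08 on the log2 scale with no overlap between the classes. The cotransporter Slc12a2 rose by 0.50 ± 0.06, with 13 of 14 Ttr-high libraries above the highest Ttr-low library. The sodium pump subunit Atp1b1 (2128 against 2060.4 CPM, medians) and the bicarbonate transporter Slc4a10 (133 against 134 CPM) did not pass the test, with log2 differences of -0.02 and 0.05. Both had Ttr-low medians of 133 CPM or more. The mean of Ttr-low libraries was 4.43% of the Ttr-high mean for Aqp1, 38.2% for Slc4a2 and 69.2% for Slc12a2.

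**Figure D3:**
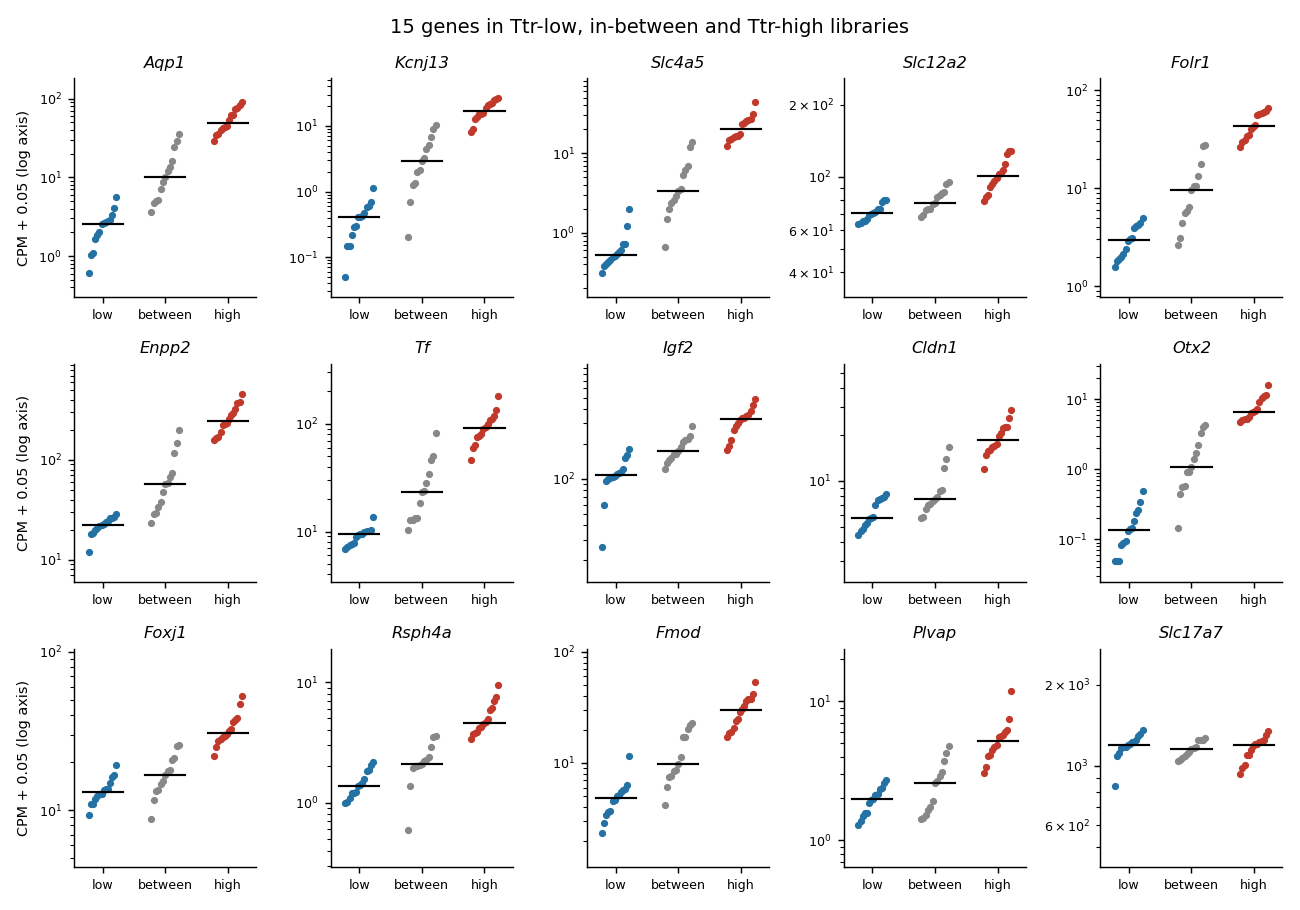
CPM + 0.05 (log axis) of 15 genes in the 14 Ttr-low, 13 in-between and 14 Ttr-high libraries, 1 dot per library with the median as a bar. In Aqp1, Kcnj13, Slc4a5, Folr1, Enpp2, Tf, Cldn1, Otx2, Foxj1, Rsph4a, Fmod and Plvap all Ttr-high dots lie above all Ttr-low dots, while the Slc17a7 dots overlap.

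Carriers of solutes included genes near 0 in Ttr-low libraries and genes that these libraries held too. Of 16 tested, 8 were higher, with a median of 0.25. Slco1a5, an organic anion transporter, went from a median of 0.0924 to 13.6 CPM (log2 fold change 6.17 ± 0.27), and Slc16a8, a lactate transporter, from 0.118 to 4.52 CPM (4.70 ± 0.26). The folate receptor Folr1, through which folate enters cerebrospinal fluid, went from 2.90 CPM (1.52 to 4.91) to 43.0 CPM (26.2 to 65.7), a log2 fold change of 3.88 ± 0.17. The sulfate transporter Slc13a4 rose by 1.93 ± 0.20 and the retinoid flippase Abca4 by 2.49 ± 0.21. Slc22a8 rose by 0.58 ± 0.09 and Slc31a1 by 0.49 ± 0.09. The peptide transporter Slc15a2 (median 65.6 against 67.0 CPM) and the folate transporter Slc46a1 (13.0 against 13.1 CPM) did not pass the test.

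Secreted proteins rose in 12 of 15 tested genes (median 1.37). Enpp2, autotaxin, the enzyme that makes lysophosphatidic acid, went from a median of 22.4 CPM (12.0 to 28.3) to 246 CPM (157 to 462), a log2 fold change of 3.57 ± 0.14. Transferrin (Tf), the iron carrier, went from 9.38 CPM (6.80 to 13.7) to 92.2 CPM (46.5 to 181), a log2 fold change of 3.35 ± 0.15. Insulin-like growth factor 2 (Igf2) rose by 1.51 ± 0.19 and its binding protein Igfbp2 by 1.37 ± 0.09, from 117 to 321 CPM at the medians. The classes did not overlap for Igfbp2 but did for Igf2, whose Ttr-low range of 26.0 to 181 CPM reached into the Ttr-high range of 176 to 491 CPM. Midkine (Mdk) rose by 1.65 ± 0.14, Ecrg4 by 2.45 ± 0.25 and ceruloplasmin (Cp) by 0.43 ± 0.10. Cystatin C (Cst3), Serping1 and the leading Vegfa transcript did not pass the test.

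Among the receptors 5 of 10 tested genes rose. The serotonin receptor Htr2c was at 45.5 to 156 CPM in Ttr-low and 145 to 260 CPM in Ttr-high libraries, a log2 fold change of 0.83 ± 0.13. The prolactin receptor (Prlr) rose by 1.07 ± 0.24, the leptin receptor (Lepr) by 0.58 ± 0.11 and the calcium-permeable channel Trpm3 by 0.58 ± 0.11. The fifth was Kl. Transferrin receptor (Tfrc) and megalin (Lrp2) differed by 0.06 and -0.02 and did not pass the test.

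Of the junction proteins and keratins 8 of 12 rose. Claudin 1 (Cldn1), a barrier claudin, went from 5.72 to 18.5 CPM at the medians (log2 fold change 1.60 ± 0.12) and claudin 3 (Cldn3) rose by 1.52 ± 0.27. Occludin (Ocln) rose by 0.69 ± 0.07 with no overlap between the classes. The simple-epithelium keratins Krt8 and Krt18 rose by 2.59 ± 0.18 and 3.61 ± 0.22. Tjp3, the scaffold ZO-3, was also called, but not when VEH 8, PB 10 or PB 11 was left out (edgeR adjusted p up to 0.062). Tjp1, the scaffold ZO-1 of many cell types, was at 138 against 126 CPM, and the epithelial adhesion genes Epcam (4.02 against 3.85 CPM) and Cdh1 (3.38 against 3.93 CPM) did not pass the test either.

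Transcription factors of choroid plexus and of ciliated cells rose in 5 of 7 tested genes. Otx2, a homeodomain factor of the choroid plexus, is listed at 2 neighbouring places on chromosome 15 of rn6 with identical counts, so that each row holds a share of its reads. Each row went from a median of 0.0853 to 6.59 CPM (log2 fold change 5.91 ± 0.32). Lmx1a, a homeodomain factor of the roof plate and cortical hem, went from 0.223 to 6.36 CPM (4.33 ± 0.22). Msx1 rose by 1.41 ± 0.10, and Foxj1, the master regulator of motile cilia, by 1.24 ± 0.11, from 13.0 to 30.8 CPM at the medians. Rfx2, a regulator of ciliary genes, rose by 0.55 ± 0.11, while its relative Rfx3 was at 18.5 against 18.2 CPM and did not pass the test.

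Of the genes of cilia and ependyma, 22 were tested. Of these, 18 were higher and 0 lower, beside 3.12% of all genes called higher, with a median of 0.81. The largest differences were in Cfap126, a protein of motile cilia (3.09 against 10.7 CPM, log2 fold change 1.87 ± 0.14), and Rsph4a, a radial spoke head protein (1.33 against 4.56 CPM, 1.81 ± 0.17). Iqcg rose by 1.21 ± 0.17, Tekt2 by 1.18 ± 0.18 and Ccdc40, a ruler of axoneme repeats, by 1.03 ± 0.10. The axonemal dynein chains Dnai1 and Dnai2 differed by 0.62 and 0.50 but did not pass the test. Ependymal cells of the ventricle wall carry the same cilia, and their part in this result was not tested.

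Short promoter windows of some members, picked by hand, are shown as examples. Matches are more frequent among the windows shown than over the lists, whose shares follow below. They are the 250 bases before the RefSeq start of each gene in GRCr8, a later assembly than rn6, read 5′ to 3′ on the strand of the gene. A search covered both strands for TAATCC, the core bound by Otx factors, GTTGCC, a core of RFX sites, and TAAACA, the core of forkhead sites. Capitals mark the matches.
Kl, chr12:5325753-5326002, plus strand, no match: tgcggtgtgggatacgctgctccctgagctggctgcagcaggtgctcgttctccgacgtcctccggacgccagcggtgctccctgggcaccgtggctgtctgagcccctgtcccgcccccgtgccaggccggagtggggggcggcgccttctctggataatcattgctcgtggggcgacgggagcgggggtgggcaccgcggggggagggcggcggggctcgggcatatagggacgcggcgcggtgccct
Mfrp, chr8:53342284-53342533, plus strand, Otx core on the minus strand: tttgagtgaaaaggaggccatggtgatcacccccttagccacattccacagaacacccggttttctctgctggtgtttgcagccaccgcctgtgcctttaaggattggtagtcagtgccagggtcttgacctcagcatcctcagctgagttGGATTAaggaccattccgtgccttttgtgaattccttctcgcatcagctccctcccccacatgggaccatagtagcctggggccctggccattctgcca
Kcnj13, chr9:95518987-95519236, minus strand, forkhead core: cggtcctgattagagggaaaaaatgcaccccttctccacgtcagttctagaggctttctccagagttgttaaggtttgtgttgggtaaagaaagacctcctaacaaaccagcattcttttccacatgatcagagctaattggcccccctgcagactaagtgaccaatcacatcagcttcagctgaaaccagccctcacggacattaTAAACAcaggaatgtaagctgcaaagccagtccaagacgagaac
Aqp1, chr4:85812534-85812783, plus strand, RFX core: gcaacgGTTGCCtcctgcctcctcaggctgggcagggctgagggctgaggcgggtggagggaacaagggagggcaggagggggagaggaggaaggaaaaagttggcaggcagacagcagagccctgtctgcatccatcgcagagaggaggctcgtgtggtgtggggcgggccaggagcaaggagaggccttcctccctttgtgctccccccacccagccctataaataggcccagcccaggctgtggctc
Tekt1, chr10:57479122-57479371, minus strand, RFX core: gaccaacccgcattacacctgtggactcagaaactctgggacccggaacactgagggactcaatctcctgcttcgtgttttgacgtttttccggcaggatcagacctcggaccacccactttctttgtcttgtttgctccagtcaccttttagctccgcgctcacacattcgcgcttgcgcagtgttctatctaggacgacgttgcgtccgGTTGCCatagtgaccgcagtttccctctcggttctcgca

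The letters GTTGCC stood in the windows of 5 of 13 promoters of the called ciliary genes (38.5%), those of Drc1, Iqcg, Mlf1, Tekt1 and Tekt2, and in 9.89% of all 33469 promoters. In the 24 promoters of called choroid plexus genes that rose at least 2-fold, 22 genes of 32, it stood in 3, those of Aqp1, Igf2 and Tf (12.5%). TAATCC stood in 1 of these 24 (4.17%), against 6.34% of all promoters, and TAAACA in 2 (8.33%), against 12.1%. Among the 20 largest rises, 14 promoters were listed, of which those of Cltrn and Mfrp held TAATCC. A match of 6 letters is a description of the sequence and not a binding site. No window was listed for Clic6, Sostdc1 or Cldn2.

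The signalling genes of the cortical hem, the embryonic organizer beside the hippocampus from which choroid plexus arises, rose in 5 of 14 tested genes. The share of all genes called higher was 3.12%. The genes that rose were Bmp6 (log2 fold change 0.46 ± 0.11), Bmp7 (0.56 ± 0.11), the secreted Wnt antagonist Sfrp1 (0.91 ± 0.12), Msx1 and Lmx1a. Msx1 and Lmx1a were also counted among the transcription factors above. Bmp4, Wnt5a, Rspo1, Rspo2, Rspo3 and Id3 did not pass the test, with differences between -0.10 and 0.19.

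Genes of the tissue under the epithelium were read next. In fibroblasts and meninges 3 of 16 tested genes rose, beside 3.12% of all genes, with a median of 0.31 and 15 of 16 differences above 0. At an unadjusted p below 0.05 there were 7, and DESeq2 called 4. Fibromodulin (Fmod), a collagen-binding proteoglycan, went from 4.79 CPM (2.28 to 11.4) to 29.7 CPM (17.1 to 53.3), a log2 fold change of 2.57 ± 0.20, with no overlap. Osteoglycin (Ogn) rose by 1.57 ± 0.21 and the retinoic acid binding protein Crabp2 by 1.11 ± 0.19. The major collagens did not pass the test: Col1a1 stood at 107 against 118 CPM, Col1a2 at 33.7 against 42.2 CPM and Col3a1 at 60.4 against 77.0 CPM. The summed level of the 18 genes of this list ranged from 152 to 860 CPM in Ttr-low and from 332 to 1185 CPM in Ttr-high libraries.

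Among 14 endothelial genes only plasmalemma vesicle protein (Plvap), which forms the diaphragms of fenestrated capillaries, rose. Of all genes, 3.12% were called higher, and at that share a list this short can hold no called gene. Plvap went from 1.91 CPM (1.24 to 2.64) to 5.13 CPM (2.99 to 11.9), a log2 fold change of 1.44 ± 0.18, with no overlap. Genes of barrier capillaries did not pass the test: claudin 5 (Cldn5) stood at 135 against 131 CPM, Mfsd2a at 22.7 against 23.6 CPM and the glucose transporter Slc2a1 at 80.1 against 82.8 CPM. Kdr, a VEGF receptor, differed by 0.21 ± 0.05 with an adjusted p of 0.017 in edgeR, below the 25% limit. None of 9 mural cell genes, 7 microglial genes or 8 red blood cell genes tested passed the test, and of 5 border macrophage genes Dab2 rose (0.43 ± 0.08). The counts at an unadjusted p below 0.05 were 2 mural, 1 microglial and 0 red blood cell genes, beside 13.2% of all genes. DESeq2 called 1, 0 and 0 of them. Red blood cell genes varied widely within both classes, from 24.6 to 1282 CPM summed in Ttr-low and from 63.4 to 1732 CPM in Ttr-high libraries. Their median log2 fold change was 0.22, with 7 of 8 above 0.

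Lists of hippocampal neurons and glia are given for comparison, beside 3.12% of all genes called higher. None of the 12 neuronal, 14 hippocampal subfield, 9 astrocyte, 9 mature oligodendrocyte or 7 oligodendrocyte precursor genes tested passed the edgeR test. At an unadjusted p below 0.05 there were 1, 1, 2, 1 and 1, which is 11.8% of these 51 genes against 13.2% of all genes, and DESeq2 called 0 in each list. Slc17a7, the glutamate transporter of excitatory terminals, stood at medians of 1198 and 1190.5 CPM, and Prox1, a factor of dentate granule cells, at 76.2 and 71.7 CPM. The medians of the log2 fold changes were -0.03 for neurons, -0.02 for subfields and 0.04 for astrocytes. Mature oligodendrocytes had a median of 0.34, with all 9 genes above 0 and wide spreads within the classes (Mbp 24.5 to 266 CPM in Ttr-low, 62.9 to 352 CPM in Ttr-high). In dorsal thalamus and habenula, tissue beside the hippocampus, Tcf7l2 (0.35 ± 0.09) and Zic1 (0.80 ± 0.14) rose, the first with no call when VEH 1, PB 2, PB 8 or LEV 9 was left out (edgeR adjusted p up to 0.057), and the other 7 tested genes did not pass the test. Of 9 genes of immature neurons and mitosis, Igfbpl1 rose (0.55 ± 0.10). None of 3 Cajal-Retzius genes and 2 skeletal muscle genes tested passed the edgeR test (1 and 0 at an unadjusted p below 0.05, 0 and 0 by DESeq2). Skeletal muscle genes summed to 13.1 to 55.1 CPM in Ttr-low and 12.8 to 57.0 CPM in Ttr-high libraries, and no liver gene had counts enough to be tested.

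The 4 transcripts that were lower belonged to 3 genes, and each gene had another transcript that did not follow. One of 2 Rps6kl1 transcripts differed by -0.60 ± 0.17, while the other, with more counts, differed by 0.04. One Vegfa transcript, of 14, differed by -0.53 ± 0.15, while the Vegfa transcript with the most counts differed by 0.03. For Oprl1, the nociceptin receptor, a pair of transcripts with identical counts differed by -0.35 ± 0.10 and the other by 0.33, which did not pass the test. With counts summed per gene symbol, 0 genes were lower. Leaving out 1 library at a time, the call was lost in 13 of 28 fits for Rps6kl1, 12 for Oprl1 and 7 for Vegfa (edgeR adjusted p up to 0.073, 0.086 and 0.080).

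The 13 libraries in between, which neither class used, were fitted on log2 Ttr CPM with the same covariates. Ttr ranged there from 107 to 2224 CPM. Of 13350 transcripts, 22 (0.165%) rose with Ttr at an adjusted p below 0.05, and 0 fell (238 fell at an unadjusted p below 0.05, and 2 fell by DESeq2). All 22 were also higher in Ttr-high libraries. A slope of 1 means that a transcript doubled whenever Ttr doubled. The slope was 1.00 ± 0.10 for Kl, 0.99 ± 0.09 for Mfrp, 0.99 ± 0.08 for F5, 0.97 ± 0.10 for Cldn2 and 0.92 ± 0.08 for Clic6, and it was 0.76 ± 0.10 for Sostdc1. Kl ranged from 1.22 to 36.3 CPM in these libraries, and Clic6 from 1.28 to 24.5 CPM. Some genes with a level of their own in Ttr-low libraries had shallower slopes, such as 0.59 ± 0.04 for Enpp2, 0.55 ± 0.05 for Tf, 0.43 ± 0.05 for Kcne2, 0.20 ± 0.04 for Slc4a2 and 0.17 ± 0.03 for Igfbp2. Some genes near 0 there had shallower slopes too. The slope was 0.58 ± 0.10 for Krt18 and, with no call, 0.59 ± 0.16 for Ca14 and 0.64 ± 0.17 for Otx2. Enpp2 had the smallest adjusted p (1.60e-05).

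**Figure D4:**
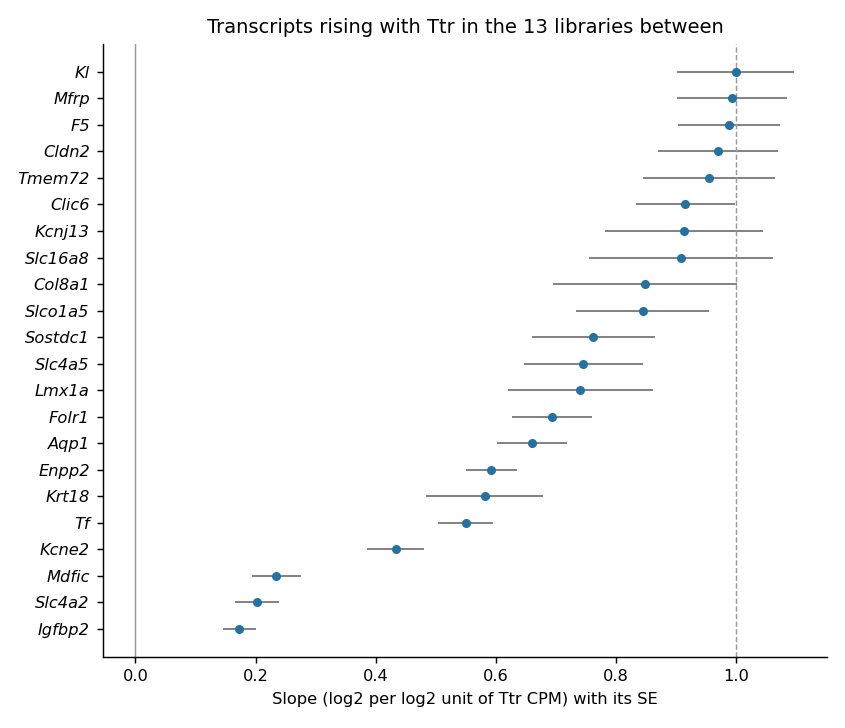
Slope of each of the 22 rising transcripts on log2 Ttr CPM in the 13 libraries between the classes, with its SE, and a dashed line at a slope of 1. Kl, Mfrp, F5, Cldn2 and Tmem72 lie near 1, and Slc4a2 and Igfbp2 near 0.2.

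Over all 387 transcripts called higher, 329 (85.0%) had a positive slope in the 13 libraries, against 49.96% of all transcripts. One library weighed on the number of calls: without VEH 4, which had 2147 CPM of Ttr, 8 transcripts rose, namely Clic6, Kl, F5, Aqp1, Enpp2, Mfrp, Tf and Cldn2. None of the 22 cilia and ependyma genes passed the edgeR test in these 13 libraries, beside 0.177% of all genes (1 at an unadjusted p below 0.05, 0 by DESeq2). Of the 22, 18 had a positive slope, with a median of 0.07. Red blood cell genes had a positive slope in 8 of 8 tested, with a median of 0.16. For these genes edgeR called 0 and DESeq2 1, and 5 were at an unadjusted p below 0.05 in edgeR.

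The classes were not separated by treatment. Ttr ranged from 0.759 to 4491 CPM in the 13 VEH animals (median 208), from 2.43 to 6990 CPM in the 14 PB animals (median 689) and from 1.85 to 5174 CPM in the 14 LEV animals (median 1759), so that each treatment covered nearly the whole range. On the log2 scale PB exceeded VEH by 1.88 ± 1.67 (SE, two-sided permutation p = 0.27, adjusted over 3 pairs 0.51), LEV exceeded VEH by 1.64 ± 1.71 (p = 0.34, adjusted 0.51), and PB exceeded LEV by 0.24 ± 1.57 (p = 0.88). With these errors, a difference of several-fold between treatments was not detectable. Treatments were spread over the classes with a Fisher exact p of 0.58. Between the forms of code, Ttr differed by -0.77 ± 1.34 (second minus first, permutation p = 0.57).

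Choroid plexus genes were also compared between the drugs and VEH. Of the 76 genes of the choroid plexus lists that were tested, 0 were called for PB against VEH, beside 0.597% of all transcripts, and 0 for LEV against VEH, beside 0.0% of all (edgeR; 760 transcripts at an unadjusted p below 0.05, and 7 called by DESeq2). At an unadjusted p below 0.05 there were 8 for PB (10.5% of the genes, against 20.1% of all transcripts) and 1 for LEV (1.32%, against 5.82%). The median log2 difference of these genes was 0.16 for PB and 0.17 for LEV. Genes that varied with Ttr had wide errors, as the values of Kl and Clic6 below show. The lower shares therefore do not show that the drugs left these genes unchanged. DESeq2 called 1 for PB, Lrp2, and 0 for LEV. Kl differed by 0.60 ± 0.75 between PB and VEH. With log2 Ttr as a covariate the same difference was -0.19 ± 0.17. For Clic6 the values were 0.62 ± 0.76 and -0.14 ± 0.16, and for Enpp2 0.48 ± 0.56 and -0.17 ± 0.23. With the covariate, 1 choroid plexus gene was called for PB, the organic anion transporter Slc22a8 (-0.39, edgeR adjusted p = 0.00517), beside 0.674% of all transcripts in that fit. Hfe, the hemochromatosis protein that acts on iron uptake, was higher in Ttr-high libraries by 2.43 ± 0.34 for its leading transcript of 3. That transcript differed by -0.14 ± 0.47 between PB and VEH, and by -0.51 ± 0.32 with the covariate. The paper lists Hfe, by gene symbol only, as the largest fall under PB and under LEV. Other Hfe transcripts are not reported here, so these values do not speak to that fall.

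The class effect was also fitted with a separate term for each form of code. No transcript had an effect that differed at an adjusted p below 0.05 (0.0% of 12878, smallest edgeR adjusted p 0.94). At an unadjusted p below 0.05 there were 651 of the 12878, close to the share that this limit gives with no effect. With the first form alone, 157 transcripts were higher and 2 lower, and with the second alone 309 and 4. In the first form alone, which holds fewer libraries, the calls of Slc22a8, Slc31a1, Cp, Bmp6, Bmp7, Prlr, Lepr, Trpm3, Cldn3, Tjp3, Rfx2, Sfrp1, Ogn, Crabp2, Dab2, Tcf7l2, Zic1, Igfbpl1 and 9 ciliary genes were lost. In the second form alone those of Cp, Bmp6, Lepr and Tcf7l2 were lost. With 20 libraries a class, Cp, Tjp3, Dab2 and Tcf7l2 were not called. Clic6 rose by 5.70 in the first and 7.33 in the second, and Kl by 6.19 and 6.56.

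Relative to Ttr, the 4 markers stood at different levels in the forms of code. This split was looked at after the values were seen. In the Ttr-high libraries Kl was at 7.04 to 10.3 CPM per 1000 CPM of Ttr in the 6 libraries of the first form and at 12.7 to 17.8 in the 8 of the second. The log2 difference was 0.82. It was 0.79 for Clic6 (4.56 to 7.99 against 8.92 to 13.0), 0.54 for Sostdc1 (7.25 to 13.2 against 12.6 to 17.2) and 0.62 for Cldn2 (6.02 to 8.08 against 6.90 to 12.9). These are descriptions with no test, since the split was chosen on these values and all 4 ratios share Ttr, which chose the class, as denominator. Kl and Clic6 did not overlap between the forms, and Sostdc1 and Cldn2 did. In the same libraries Ttr itself was lower in the second form by a log2 difference of -0.25, and the CPM of the markers was higher by 0.57 for Kl, 0.55 for Clic6, 0.29 for Sostdc1 and 0.38 for Cldn2.

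In the 13 libraries in between, which the observation had not used, the difference was 0.17 for Kl, 0.33 for Clic6, 0.52 for Cldn2 and 0.99 for Sostdc1, also given with no test. The highest Sostdc1 ratio there, 64.1, was that of PB 9, the library with the least Ttr of the 13. All 4 differences had the same sign as in the Ttr-high libraries, and that of Kl was much smaller. The 4 ratios share Ttr as denominator, so that their signs are not independent. The forms overlapped for all 4 markers. Kl was at 9.00 to 25.2 in the first form against 10.9 to 23.1 in the second, and Cldn2 at 2.81 to 17.4 against 8.55 to 12.3. Form of code goes with animal number in the labels, so that animals and any handling that goes with the code cannot be told apart.

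**Figure D5:**
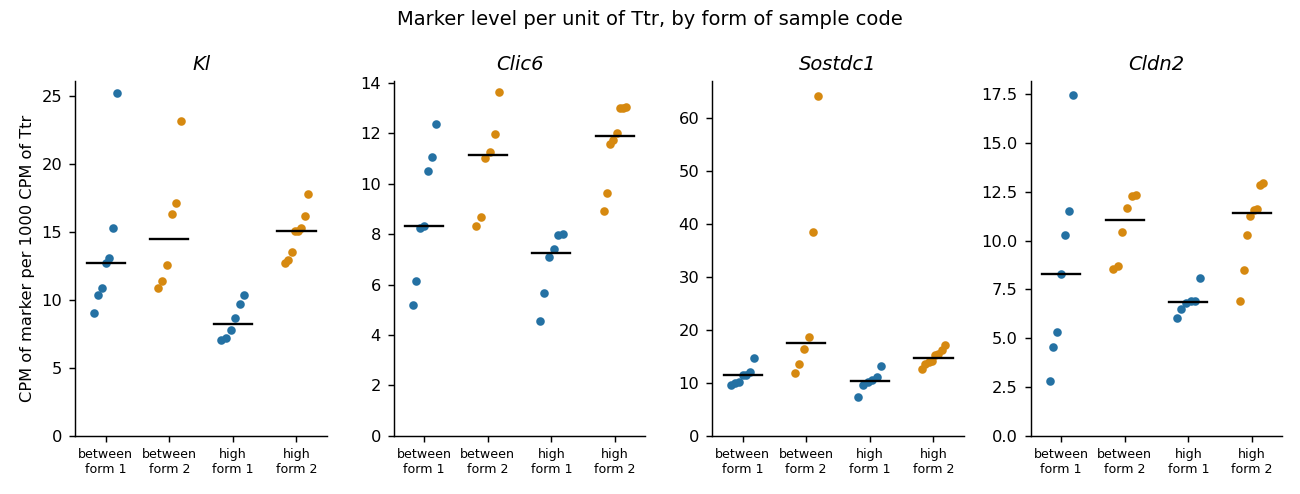
CPM of Kl, Clic6, Sostdc1 and Cldn2 per 1000 CPM of Ttr in the 13 in-between and 14 Ttr-high libraries, split by form of sample code, 1 dot per library with the median as a bar. In the Ttr-high libraries the dots of the 2 forms do not overlap for Kl and Clic6.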

How the data were processed

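Transcript counts were measured by RNA sequencing of 42 rat hippocampi, 1 library per animal. The authors removed adaptors and low-quality reads, aligned reads to rn6 with STAR 2.7.3a and deposited estimated counts per transcript from the Partek E/M step, not normalized. A second deposited table holds the authors' drug comparisons (p-values, fold changes, group means) and was not used here. No transcript lengths were given, so a planned ranking of genes per kilobase was not made, and coordinates were not converted between builds.

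Estimated counts were rounded and analysed with edgeR 4.0.16 (TMM, filterByExpr, glmQLFit, glmQLFTest, R 4.3.3) with treatment, form of sample code and Ttr class as terms, with Ttr itself left out of the tests. Benjamini-Hochberg adjustment ran over all tested transcripts. Printed levels are CPM from library totals, and fold changes come from the fit, whose TMM factors lay between 0.921 and 1.05. On simulated counts with 200 transcripts changed 2-fold among 12842, the class test found 200 and made 8 false calls. The changed transcripts had a mean of at least 50 counts, and as many went up as down. All transcripts shared a single dispersion. The check therefore does not cover changes in transcripts with few counts. Ttr levels were compared by permutation (100000 resamples) or, for small groups, exact permutation tests in scipy. Intervals cover counting error only. Library totals, from 9499492 to 14488134, leave few counts for transcripts near 1 CPM, and the standard errors give their precision.

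The classes, the 25 lists and the rules were chosen with earlier results of these data known. Text names were the list members, the 20 largest rises, 10 largest falls and 10 smallest adjusted p among called transcripts, and the 5 smallest adjusted p for the slope. Other names were chosen after values were seen. Of the listed symbols, those not matched to the files were not analysed here. Some list members are counted but not reported here by name. Replicates are separate animals. The paper states that treatments were balanced within litters, but the labels name no litters, and the fits hold no litter term. Same-numbered animals of different treatments deviated together for some numbers and not for most. Alternatives were DESeq2 1.42.0, its size factors, other filters, covariates, class sizes, rankings and limits, and each library left out.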

Additional observations from a re-analysis of the deposited data

Results flagged for a closer look

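The excluded animal, VEH 7, held more RNA of the 4 other markers per Ttr than any Ttr-high library. Per 1000 CPM of Ttr it had 191 CPM of Kl, 50.6 of Clic6, 43.6 of Sostdc1 and 43.3 of Cldn2, while the 14 Ttr-high libraries reached at most 17.8, 13.0, 17.2 and 12.9. The 13 libraries in between, whose Ttr range includes that of VEH 7, reached 25.2 for Kl, 13.6 for Clic6, 64.1 for Sostdc1 and 17.4 for Cldn2, so that its Sostdc1 value lay within their range. The study excluded this library for an average coverage far above, and a genomic coverage far below, those of its other samples. These values were thus drawn from a library outside every comparison above. Its Ttr level was 1006 CPM, below 17 of the other 41 libraries, and its Kl level of 192 CPM was above all 41, whose highest was 78.9 CPM. Clic6 (50.9 CPM), Sostdc1 (43.8 CPM) and Cldn2 (43.6 CPM) lay within the Ttr-high range. Its 18S ribosomal RNA (Rn18s) took 2.42% of counts, against 0.384% to 1.68% in the other 41 libraries. Of the neuronal genes, Snap25 stood at 218 CPM, below all 41, and Slc17a7 at 1578 CPM, above all 41. Eif2s3y was at 9.64 CPM, below 40 of the 41, although the labels describe male pups. The part of these in its marker levels was not tested.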

How the results depend on the processing

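Same-numbered animals of different treatments did not deviate together for most numbers (40 pairs, correlations from -0.34 to 0.35, 10 of them above 0.1, and 4 of 41 libraries closest to their own number). All pairs were positive for number 8 (0.256 to 0.345) and number 11 (0.143 to 0.271). Whether the numbers go with litters is not given. With the animal number as a replicate block, 208 transcripts were higher and 1 lower, in place of 387 and 4. Of the 387, 196 were among the 208. The block left at 0 the count of choroid plexus genes called for PB or LEV.

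A mean of at least 50 counts left 251 higher. The first form of code alone gave 157 higher and 2 lower, and a 2-fold limit 137 and 0. The number lower was 7 with DESeq2, 0 with counts summed per gene symbol, 0 with 20 libraries a class and 16 with no fold limit. Under the other 14 settings for the class comparison the number higher stayed within 1.5 times of 387. Leaving out 1 library at a time gave 340 to 400 higher, 1 to 6 lower, 8 to 23 rising and 0 to 3 falling in the 13 libraries. The single lower transcript was left without VEH 1 or without LEV 8. The 8 rising were left without VEH 4. Without treatment and form of code, 34 rose and 1 fell. DESeq2 gave 2 falling and no filter 1. For choroid plexus genes in PB against VEH, the Ttr covariate and DESeq2 each gave 1. LEV against VEH in Ttr turned to -0.13 within the first form of code, and PB against LEV to -0.42 within the second. The causes were not tested. Of 88 named transcripts, 51 kept their call in every fit and 0 reversed. The call was lost by 27 with the replicate block, 35 in the first form of code alone, 8 in the second, 9 with 20 libraries a class, 5 per gene symbol and 6 with 1 library left out. Depth limits transcripts near 1 CPM.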
